A study of Mus musculus with 4 samples.

Results

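Most of the genes described here encode the respiratory chain, the 4 electron-carrying complexes of the inner mitochondrial membrane, together with ATP synthase (complex V). All were taken from the deposited count table by gene symbol. Nuclear-encoded members have symbols that start with Nduf, Uqcr, Cox4 to Cox8 or Atp5, or are Sdha to Sdhd. Mitochondrial-encoded members are the 13 protein-coding genes of the mitochondrial genome. The rule itself reads gene symbols and no measured value, although it was written with earlier results of these data known. It gave 106 of the 27179 genes of the table, 93 nuclear-encoded and 13 mitochondrial-encoded. Of these, 83 nuclear-encoded genes and all 13 mitochondrial-encoded genes passed the filter on low counts, among 11172 genes tested. The symbol rule does not take in Cyc1, the cytochrome c1 gene of complex III. It does take in Atp5s, Atp5sl and the pseudogene Atp5c1-ps, which were not assigned to any complex below. All 3 were tested and are counted among the 83, and 0 of them were called.

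RNA sequencing had been done on CD4+Foxp3+ regulatory T cells, called Treg cells, which hold immune responses in check. Mice were of the C57BL/6 strain and at steady state, and the cells came from their spleen and peripheral lymph nodes. One group of 2 libraries is labelled WT, and the other group of 2 libraries is labelled P65KO and described as deficient in RelA (p65), which is 1 of the NF-kB family of transcription factors. How RelA was deleted, in which cells, and the ages of the mice were not given in the sources used here. The comparison asks how expression in Treg cells depends on RelA. No label says that the libraries of a group came from separate mice, so p-values reflect no more than the spread among 4 libraries and that spread may be technical.

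Library totals ran from 4513863 to 4624230 counts. Foxp3, the gene that defines the lineage, stood at 377 and 371 CPM (counts scaled to library size, with TMM factors) in WT and at 386 and 528 CPM in P65KO-labelled libraries. Summed over 6 markers of Treg and CD4 T cells, Foxp3 among them, the level was 3704 and 3619 CPM in WT against 3019 and 3489 CPM, with 1 marker called higher and 2 called lower. Rela itself was at 190 and 173 CPM in WT and at 181 and 201 CPM in P65KO-labelled libraries, so counts over the whole gene did not separate the groups and cannot check the label. The groups also differ by sex-linked genes. Xist had 494 and 608 counts in WT against 0 and 2, and the Y-linked gene Ddx3y had 0 and 0 counts in WT against 302 and 404, so genotype label and sex of the source cannot be told apart. Summed over 12 myeloid markers, the level was 219 and 305 CPM in WT and 1209 and 471 CPM in P65KO-labelled libraries, and 8 of the 9 markers tested rose. The erythroid markers summed to 21.3 and 27.8 CPM in WT and to 105 and 192 CPM in P65KO-labelled libraries, and all 4 tested markers rose. The 6 B cell markers went the other way, with 49.5 and 52.5 CPM in WT against 24.3 and 15.1 CPM, and both tested markers fell. Of 4 tested NK cell markers 1 fell, of 1 tested stromal marker 1 rose, the 1 tested CD8 T cell marker did not pass, and 0 platelet markers were tested. The part of these markers in the results below was not tested. In bulk samples, fewer cells of a type and less RNA per cell cannot be told apart.

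As background, complex I (NADH dehydrogenase), complex III (cytochrome bc1) and complex IV (cytochrome c oxidase) pump protons as electrons pass to oxygen, complex II (succinate dehydrogenase) feeds electrons in from the citric acid cycle, and ATP synthase uses the proton gradient to make ATP. Complexes I, III, IV and V are built from proteins of both genomes, whereas complex II is wholly nuclear-encoded. Mitochondrial genes are transcribed as long polycistronic RNAs from both strands and cut into single messages, while each nuclear gene has its own promoter. Resting and regulatory T cells are known to rely strongly on oxidative phosphorylation.

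Sequence identity between members and other parts of the genome bears on how their counts can be read, so the clearest cases are printed first. Each pair below shows the first 60 coding bases of a member and the matching bases of an annotated pseudogene, all in lower case because every base was the same (GENCODE M21, GRCm38). The pseudogene lines give the strand read. The first 2 pairs are mitochondrial genes with a copy on chromosome 1, and the last is a subunit of the membrane part of ATP synthase with a processed pseudogene on chromosome 5.
mt-Atp6 (ATP6), chrM:7927-7986, plus strand: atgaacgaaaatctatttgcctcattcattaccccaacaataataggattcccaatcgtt
Gm10925, chr1:24614592-24614651, minus strand: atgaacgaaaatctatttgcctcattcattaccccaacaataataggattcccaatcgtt
mt-Co2 (COX2), chrM:7013-7072, plus strand: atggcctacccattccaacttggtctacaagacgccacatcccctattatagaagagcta
Gm28661, chr1:24615506-24615565, minus strand: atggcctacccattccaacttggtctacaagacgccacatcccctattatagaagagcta
Atp5l, spliced coding sequence, chromosome 9, minus strand: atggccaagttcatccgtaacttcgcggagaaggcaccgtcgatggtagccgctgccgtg
Gm10221, chr5:24581803-24581862, minus strand: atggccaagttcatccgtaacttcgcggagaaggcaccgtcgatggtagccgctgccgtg

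The identity ran on past the bases shown. Gm10925 matched ATP6 at 678 of 678 bases compared, Gm28661 matched COX2 at 681 of 681, and Gm10221 matched the Atp5l coding sequence at 309 of 309. A read that lies wholly within such a stretch could come from either place. How the authors' alignment and counting placed such reads was not given in the sources used here, so the counts of these members are uncertain.

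The nuclear-encoded genes were nearly level between the groups. Among the 11172 genes tested, 20.7% passed the test in either direction (p adjusted by Benjamini-Hochberg under 0.05 in the quasi-likelihood test of edgeR), 9.00% higher and 11.7% lower in P65KO-labelled libraries. Of the 83 nuclear-encoded members, 1 passed (1.2%), and it was higher. Log2 fold changes, always P65KO-labelled over WT, had a median of -0.03 and ran from -0.41 to 0.34, with 36 above 0 and 47 below. That balance depended on single libraries: 20 of 83 were above 0 without WT replicate 1, 58 of 84 tested were above 0 without WT replicate 2, and 51 of 84 without P65KO-labelled replicate 2. Over the 83 genes the median was then -0.11, 0.09 and 0.02, and it was -0.08 without P65KO-labelled replicate 1. The median size of the change without its sign was 0.10 on the log2 scale, against 0.22 over all genes tested. The point estimate lay within 1.2-fold for 76 of the 83 members (91.6%), and for 6302 of all 11172 genes (56.4%).

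These narrow differences came with intervals that were mostly narrow too. The 95% interval of the fold change lay wholly inside 1.5-fold in either direction for 66 of the 83 nuclear-encoded members (79.5%), and inside 2-fold for 79. Of all 11172 genes tested, 5663 (50.7%) had intervals inside 1.5-fold and 8413 inside 2-fold. Their median standard error was 0.12 on the log2 scale, against 0.15 over all genes. Genes outside the respiratory chain with a mean count of 123 to 630.1, the middle range of the nuclear-encoded members, were called in 907 of 4828 cases (18.8%). In that same range 0 of 41 members were called, at a median standard error of 0.12 in both sets. At an unadjusted p under 0.05, 5 of the 83 nuclear-encoded members passed, against 3646 of all genes. The 2 groups did not overlap for 27 of the 83 members, 14 higher and 13 lower, where 60.5% of all genes tested did not overlap.

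**Figure D1:**
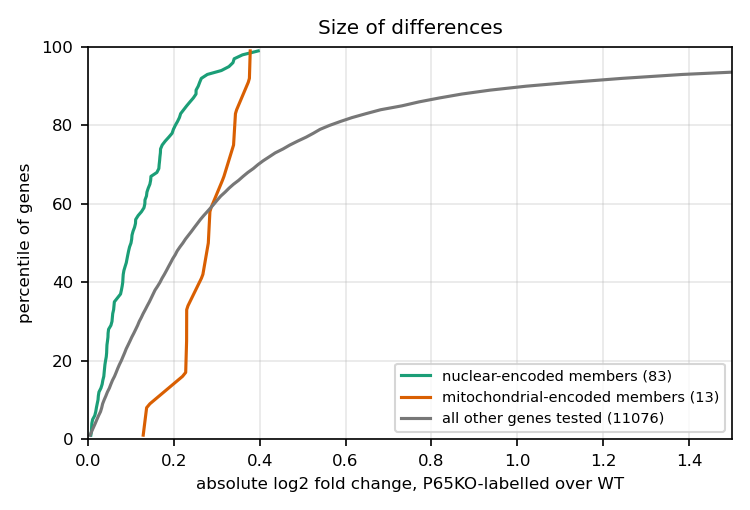
Percentile of genes (vertical axis) against the absolute log2 fold change, P65KO-labelled over WT (horizontal axis), for the 83 nuclear-encoded members, the 13 mitochondrial-encoded members and all other genes tested. The nuclear-encoded curve lies to the left of the curve of other genes, with medians of 0.10 and 0.22, and the mitochondrial-encoded curve has a median of 0.28 and stops below 0.4.

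The 13 mitochondrial-encoded genes all had log2 fold changes above 0, from 0.13 (ND3) to 0.38 (ND5), with a median of 0.28. The median was 0.12 without WT replicate 1, 0.46 without WT replicate 2, 0.42 when P65KO-labelled replicate 1 was left out and 0.14 when P65KO-labelled replicate 2 was, and 2 of the 13 were below 0 without WT replicate 1. Of the 13, 2 passed the test, ATP6 and ND5 (15.4%, against 9.00% of all genes called higher). The groups did not overlap for 6 of the 13, all 6 higher in P65KO-labelled libraries, where 29.7% of all genes tested did not overlap in that direction. The 13 genes share 1 genome and long precursor RNAs and moved together from library to library, so they are not 13 independent observations. WT replicate 1 was lowest for all 13, and P65KO-labelled replicate 2 was highest for 12 of 13. The 2 libraries between them lay close together, and 7 of the 13 genes were higher in WT replicate 2 than in P65KO-labelled replicate 1.

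**Figure D2:**
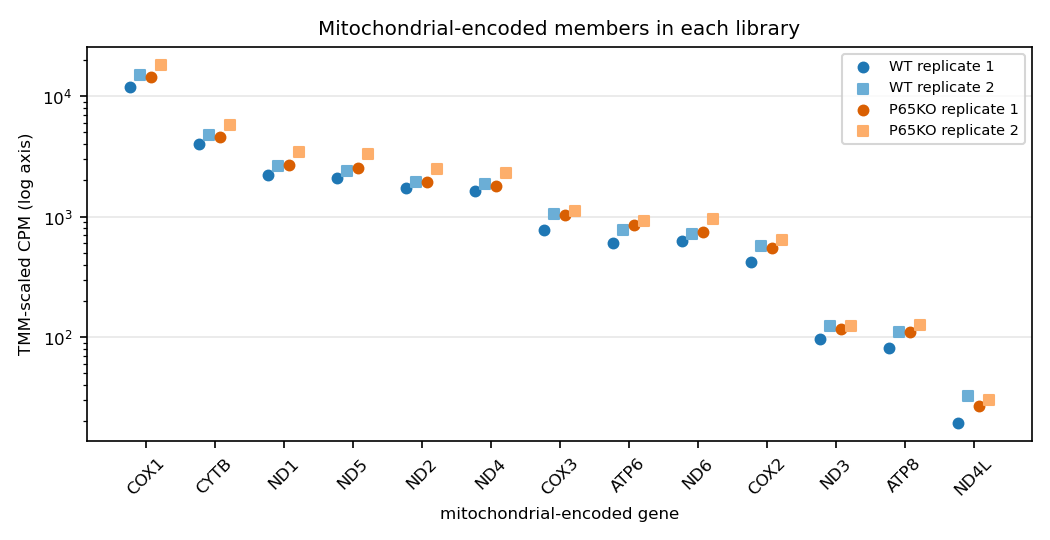
TMM-scaled CPM on a log axis for each of the 13 mitochondrial-encoded genes, with 1 point per library, WT in blue and P65KO-labelled in orange. WT replicate 1 is the lowest point for each gene, and P65KO-labelled replicate 2 is the highest for 12 of 13.

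ATP6 encodes the membrane subunit of ATP synthase that lines its proton path (Entrez 17705, mitochondrial genome 7927 to 8607). Its level was 603 and 769 CPM in WT and 857 and 923 CPM in P65KO-labelled libraries, so both P65KO-labelled libraries were above both WT libraries. The means were 686 ± 117 and 890 ± 46.6 CPM (SD, n = 2 each), and the log2 fold change was 0.38 (SE 0.11, edgeR quasi-likelihood adjusted p = 0.0346), or 1.30-fold with a 95% interval of 1.09 to 1.54. The call was lost when WT replicate 1, P65KO-labelled replicate 1 or P65KO-labelled replicate 2 was left out (adjusted p = 0.277, 0.0779 and 0.241), and with no scaling between libraries (0.0507) or no filter on low counts (0.202). Of the 50-base words of ATP6, 99.5% also occur in an annotated pseudogene, chiefly the Gm10925 copy printed above.

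ND5, a proton-pumping core subunit of complex I (Entrez 17721, mitochondrial genome 11742 to 13565), was the other gene called. It had 2104 and 2373 CPM in WT and 2508 and 3312 CPM in P65KO-labelled libraries, and the groups did not overlap, although the gap between WT replicate 2 and P65KO-labelled replicate 1 was small. The means were 2239 ± 190 and 2910 ± 569 CPM (SD, n = 2 each), with a log2 fold change of 0.38 (SE 0.12, adjusted p = 0.0485 by edgeR), or 1.30-fold with a 95% interval of 1.08 to 1.57. Leaving out either WT library (adjusted p = 0.368 for replicate 1 and 0.183 for replicate 2) or P65KO-labelled replicate 2 (0.528) ended the call, as did no scaling (0.0693), no filter (0.254) and DESeq2 (0.33). In ND5, 7.61% of the 50-base words occur in a pseudogene.

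The other complex I genes of the mitochondrial genome did not pass the test. ND1 had 2230 and 2628 CPM in WT and 2681 and 3464 CPM in P65KO-labelled libraries (log2 fold change 0.34, adjusted p = 0.0743 by edgeR). ND6, the only protein gene on the other mitochondrial strand, had 623 and 714 CPM against 748 and 949 (0.34, adjusted p = 0.0581 by edgeR), and ND2 had 1731 and 1927 CPM against 1953 and 2501 (0.28). The groups did not overlap for ND1, ND2 and ND6. All 3 passed when P65KO-labelled replicate 1 was left out, and ND6 also passed with DESeq2. ND4 had 1617 and 1867 CPM in WT and 1797 and 2289 CPM in P65KO-labelled libraries (0.23), ND3 had 96.6 and 123 CPM against 117 and 123 (0.13), and ND4L had 19.3 and 32.7 CPM against 26.9 and 30.3 (0.14). For these last 3 genes WT replicate 2 was above P65KO-labelled replicate 1, so the groups overlapped.

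COX1, the catalytic subunit of cytochrome c oxidase, was the most abundant member. It had 11816 and 15006 CPM in WT and 14437 and 18137 CPM in P65KO-labelled libraries, with overlapping groups (log2 fold change 0.28, SE 0.13, adjusted p = 0.157 by edgeR, 95% interval 0.998 to 1.48-fold). COX1 alone made up 45.2% to 47.0% of all counts in mitochondrial-encoded members, a share that hardly moved between libraries. COX2, which takes electrons from cytochrome c, had 420 and 571 CPM in WT and 551 and 642 CPM in P65KO-labelled libraries, and COX3 had 778 and 1051 CPM against 1037 and 1105. CYTB, the cytochrome b of complex III, had 4022 and 4776 CPM in WT and 4567 and 5749 CPM in P65KO-labelled libraries. ATP8, a small membrane subunit of ATP synthase, had 81.0 and 109.5 CPM in WT and 110.0 and 127 CPM in P65KO-labelled libraries. Of these 4, the groups overlapped for COX2, COX3 and CYTB, and for ATP8 they were apart by a narrow gap.

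As a share of all counts, the mitochondrial-encoded members took 2.67% and 3.22% in WT against 3.10% and 3.84% in P65KO-labelled libraries. The groups overlapped, since WT replicate 2 was above P65KO-labelled replicate 1. The means were 2.94% ± 0.389 and 3.47% ± 0.529 (SD, n = 2 each; two-sided exact permutation test, p = 0.667, where 0.333 is the smallest value that 2 libraries against 2 can give). The nuclear-encoded members took 1.09% and 1.19% in WT against 1.16% and 1.09% in P65KO-labelled libraries, means that differed by far less than the spread within either group (1.14% ± 0.0698 and 1.13% ± 0.0489, SD, n = 2 each; exact permutation p = 1). The log2 ratio of mitochondrial-encoded to nuclear-encoded counts was 1.30 and 1.44 in WT against 1.41 and 1.81 in P65KO-labelled libraries. Its difference of 0.24 rested mostly on P65KO-labelled replicate 2, without which it was 0.04, and the exact permutation p was 0.667. The Wilson 95% intervals of these shares were narrow (3.83% to 3.86% in P65KO-labelled replicate 2) and cover counting error only.

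Per transcript length, levels of mitochondrial-encoded genes spanned a wide range. On the deposited log2 RPKM scale (reads per kilobase, scaled to library size), averaged over the 4 libraries, COX1 stood at 13.21, CYTB at 12.01, ND1 at 11.47 and ND2 at 10.92. ND6, ND5, ND4, COX3 and ATP6 followed between 10.49 and 10.16, then COX2 at 9.62, ATP8 at 9.01, ND3 at 8.36 and ND4L at 6.50. COX1 was above COX2 by 3.54 to 3.65 and above COX3 by 2.82 to 3.06 log2 units in the single libraries, so these gaps were far larger than any difference between groups. Some neighbours in this order lay close together, as with ND6 and ND5, which differed by 0.05 log2 units on average (SD over the 4 libraries 0.03).

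These levels can be set beside the share of sequence held in common with nuclear pseudogenes. COX2, COX3, ATP6, ND3 and ND4L each had over 90% of their 50-base words in an annotated pseudogene, and their median level was 9.62 log2 RPKM. COX1 (51.1%) and ND4 (62.2%) lay between, and the 6 genes under 10% (ATP8, CYTB, ND1, ND2, ND5 and ND6) had a median of 10.70. Genes also overlap on the mitochondrial genome: ATP8 and ATP6 by 43 bases, ND5 and ND6 on opposite strands by 14, ND4L and ND4 by 7, and ATP6 and COX3 by 1. The strand setting of the counting was not given in the sources used here, so reads in these overlaps and on either strand of ND5 and ND6 cannot be assigned with certainty. The part of copies and overlaps in the measured levels was not tested.

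**Figure D3:**
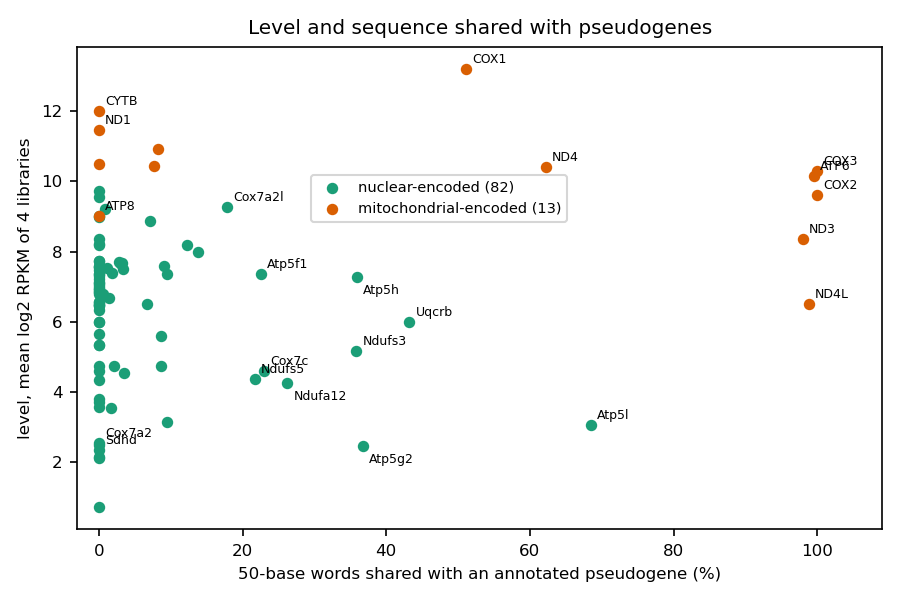
Mean log2 RPKM of 4 libraries (vertical axis) against the percent of 50-base words of each gene's transcripts found in an annotated pseudogene (horizontal axis), for 82 nuclear-encoded and 13 mitochondrial-encoded genes tested. The pseudogene Atp5c1-ps is not shown. COX2, COX3, ATP6, ND3 and ND4L lie above 90% on the horizontal axis. Atp5l and Atp5g2 are low nuclear-encoded genes with much shared sequence. Atp5h (35.9%) and Atp5f1 (22.5%) also share over 20% but stand higher, at 7.26 and 7.35 log2 RPKM.

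**Figure D4:**
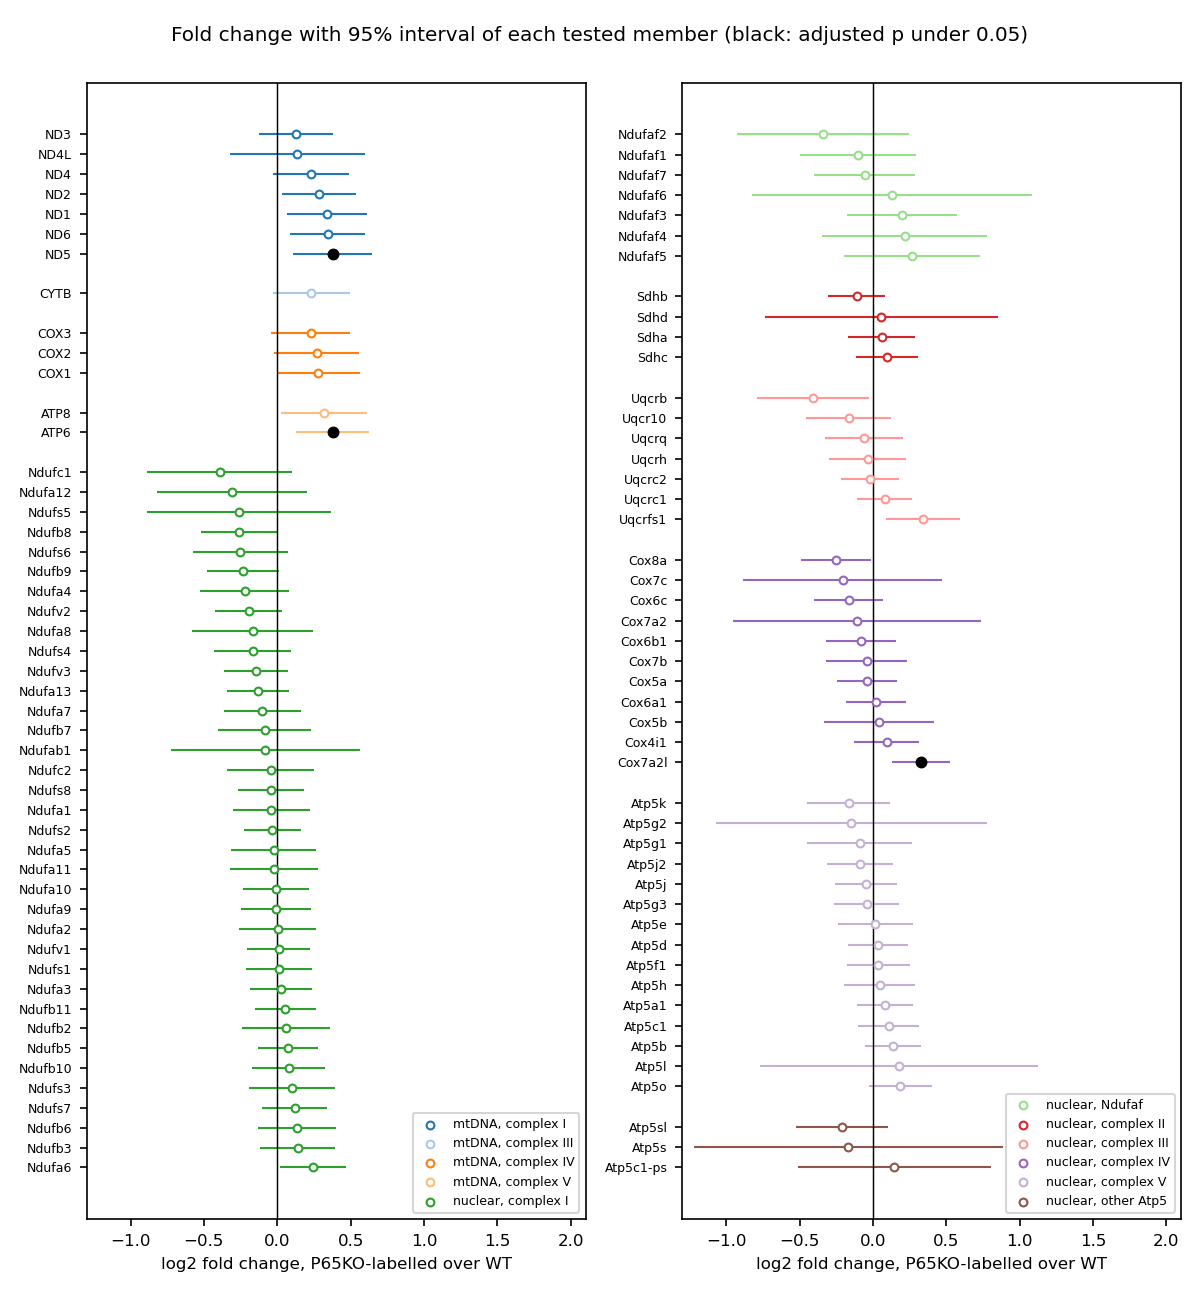
Log2 fold change, P65KO-labelled over WT, with its 95% interval for each of the 96 tested members, grouped by genome and complex, black where the adjusted p was under 0.05. All 13 mitochondrial-encoded genes lie to the right of 0, the nuclear-encoded genes lie on both sides of it, and ATP6, ND5 and Cox7a2l are the 3 black points.

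Cox7a2l was the nuclear-encoded gene called. It encodes a relative of complex IV subunit 7a (Entrez 20463, GRCm38 chromosome 17, 83501917 to 83514333). Its level was 606 and 664 CPM in WT and 812 and 785 CPM in P65KO-labelled libraries, both above both WT libraries. The means were 635 ± 40.9 and 799 ± 18.9 CPM (SD, n = 2 each), with a log2 fold change of 0.33 (SE 0.09, adjusted p = 0.0217 by edgeR), or 1.26-fold with a 95% interval of 1.10 to 1.44. The call was lost when any 1 library was left out, with adjusted p from 0.0694 to 0.17, and with no filter (0.0907). A processed copy, Gm6969, holds 17.8% of its 50-base words.

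Complex I, grouped by gene symbol with Ndufa4 and Ndufa4l2 included, was the largest group, with 36 of 38 genes tested and 0 called. The median log2 fold change was -0.04, with 13 genes above 0 and 23 below. Its 7 core nuclear-encoded subunits, which carry the flavin and iron-sulfur centres, ran from -0.20 to 0.12, and for all 7 the 95% interval lay inside 1.5-fold. The 29 tested supernumerary subunits, which surround that core, ran from -0.39 to 0.24. The 2 most abundant per length were small supernumerary subunits. Ndufa3 had 97.0 and 106 CPM in WT and 102 and 104 CPM in P65KO-labelled libraries, and Ndufa2 had 98.5 and 128 CPM against 113 and 114, each overlapping between groups with a log2 fold change near 0 (0.02 and 0.00). Ndufa4, counted among the 29 by its symbol but now known as a subunit of complex IV, had 105 and 122 CPM in WT and 113 and 81.7 CPM in P65KO-labelled libraries.

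Assembly factors of complex I, the 7 Ndufaf genes, were low and gave 0 calls. Ndufaf3 had 18.0 and 22.4 CPM in WT and 22.5 and 23.9 CPM in P65KO-labelled libraries, and Ndufaf1 had 18.2 and 23.5 CPM against 18.7 and 20.2. The 7 log2 fold changes ran from -0.34 to 0.27. At these low counts the 95% interval stayed inside 1.5-fold for only 3 of the 7, so for the others a change of that size was not excluded.

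Complex II also gave 0 calls among its 4 genes. Sdha, the flavoprotein that oxidises succinate, had 394 and 328 CPM in WT and 360 and 393 CPM in P65KO-labelled libraries (log2 fold change 0.06). Sdhb, the iron-sulfur subunit, had 156 and 160 CPM against 146 and 147 (-0.11), and Sdhc, a membrane anchor, had 131 and 131 CPM against 148 and 132 (0.10). The groups overlapped for Sdha, and they did not for Sdhb and Sdhc, by small gaps. Sdhd, the other anchor, had only 4.12 and 8.82 CPM in WT and 6.62 and 6.86 CPM in P65KO-labelled libraries. Per length it stood at 2.33 log2 RPKM against 6.84 for Sdhc, with which it pairs in the membrane, and 0% of its 50-base words occurred in an annotated pseudogene.

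Complex III held the ends of the nuclear-encoded range among its 7 tested genes, and 0 were called. Uqcrfs1 and Uqcrb are named here after their values were seen. Uqcrfs1, the Rieske iron-sulfur protein, had 123 and 160 CPM in WT and 179.5 and 179.4 CPM in P65KO-labelled libraries (log2 fold change 0.34, adjusted p = 0.057 by edgeR). Uqcrb, a small subunit near the quinone site, had 30.6 and 43.3 CPM in WT and 29.8 and 25.9 CPM in P65KO-labelled libraries (-0.41, adjusted p = 0.126 by edgeR). Neither gene overlapped between the groups, and neither passed the test, but Uqcrfs1 passed when WT replicate 2 was left out. For Uqcrb, 43.2% of the 50-base words occur in pseudogenes, so its counts are uncertain. Per length the most abundant members were Uqcrh, the hinge protein, with 233 and 292 CPM against 279 and 233, and Uqcr10, with 76.6 and 100.3 CPM against 84.7 and 73.1, both overlapping. Cyc1 itself, outside the symbol rule, stood at 90.3 and 119 CPM in WT and 114 and 99.4 CPM in P65KO-labelled libraries.

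Complex IV had 11 of 18 genes tested and, beside Cox7a2l, no call. Cox4i1, the ubiquitous form of subunit 4, was the most abundant nuclear-encoded member per length at 9.72 log2 RPKM, with 509 and 602 CPM in WT and 614 and 572 CPM in P65KO-labelled libraries (log2 fold change 0.09). Cox6a1, the general form of subunit 6a, had 146 and 164 CPM in WT and 157 and 157 CPM in P65KO-labelled libraries, and Cox6b1 had 144 and 168 CPM against 158 and 137. All 3 overlapped between the groups. Cox8a, the general form of subunit 8, had 185 and 210 CPM in WT and 181 and 151 CPM in P65KO-labelled libraries (-0.25, adjusted p = 0.131 by edgeR), without overlap.

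Complex IV subunits exist in forms restricted to muscle, heart, lung or testis, and these were at or near 0. Cox4i2, Cox7b2, Cox8b and Cox8c had 0 counts in all 4 libraries, as did Ndufa4l2, a relative of Ndufa4. A count of 3 in 1 library would be 0.646 to 0.664 CPM. Cox6a2 had 0 and 0 counts in WT against 1 and 1 in P65KO-labelled libraries, Cox6b2 had 2 and 1 against 2 and 3, and Cox7a1 had 3 and 4 against 3 and 1. Per length, the family of subunit 7a was led by Cox7a2l at 9.27 log2 RPKM. Cox7a2, the general form of the subunit itself, stood 6.31 to 7.14 log2 units lower in the single libraries, at 17 and 25 counts in WT against 22 and 16 in P65KO-labelled libraries, with 0% of its words shared with an annotated pseudogene.

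ATP synthase had all 15 genes tested and 0 called. The 5 genes of the F1 head, which makes ATP, all had small log2 fold changes above 0, from 0.02 to 0.14. Atp5b, the catalytic beta subunit, had 1025 and 1088 CPM in WT and 1179 and 1144 CPM in P65KO-labelled libraries (log2 fold change 0.14, adjusted p = 0.318 by edgeR), without overlap. Atp5e, the small epsilon subunit, had 284 and 338 CPM in WT and 348 and 281 CPM in P65KO-labelled libraries (0.02), with overlap. The 4 stalk genes ran from -0.05 to 0.19, and the 6 genes of the membrane part ran from -0.17 to 0.18 with 5 of 6 below 0. The mitochondrial-encoded partners in that membrane part, ATP6 and ATP8, were at 0.38 and 0.32, and the difference between them and the nuclear-encoded genes was not tested gene by gene.

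The c-ring of ATP synthase is made of 1 protein encoded by 3 nuclear genes that differ in their import signal. Atp5g3 had the highest counts of the 3, with 327 and 388 CPM in WT and 361 and 333 CPM in P65KO-labelled libraries. Atp5g1 had 23.7 and 23.7 CPM in WT and 24.3 and 20.2 CPM in P65KO-labelled libraries, and Atp5g2 had 2.82 and 4.52 CPM against 3.75 and 2.88. On the per-length scale the 3 genes stood at 9.01, 4.72 and 2.45 log2 RPKM, and all 3 overlapped between the groups. Atp5g2 shares 36.7% of its words with pseudogenes, Atp5g1 8.67% and Atp5g3 0%. The part of copies in this order of levels was not tested.

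Members encoded on the X chromosome were of interest because the groups differ in sex-linked genes. Ndufa1 had 66.8 and 82.8 CPM in WT and 76.1 and 69.5 CPM in P65KO-labelled libraries, Ndufb11 had 132 and 143 CPM against 146 and 139, and Cox7b had 100.3 and 127 CPM against 120 and 100.3. All 3 overlapped between the groups, their log2 fold changes ran from -0.04 to 0.05, and each 95% interval lay inside 1.5-fold.

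Some members that are not known as tissue-restricted were nearly or wholly without counts. Uqcr11, a small subunit of complex III, had 0 counts in all 4 libraries, and Ndufb4, a complex I subunit, had 11 and 9 counts in WT against 9 and 4 in P65KO-labelled libraries. Atp5l, printed above beside its copy, had 11 and 27 counts in WT against 21 and 21 in P65KO-labelled libraries, and 68.5% of its words occur in pseudogenes. Ndufb4 shares 37.0% and Uqcr11 10.9%. Among nuclear-encoded members tested, without Atp5c1-ps, the 9 genes with over 20% shared words had a median of 4.60 log2 RPKM (range 2.45 to 7.35). The 24 with up to 20% had 7.38 (3.13 to 9.27), and the 49 with none in a pseudogene had 6.84 (0.71 to 9.72). Some of these 49 share words with genes other than pseudogenes, as with Ndufb6 (31.6%) and Uqcrc2 (24.2%). Sdhd and Cox7a2 were low with 0% shared, so low counts were also found without an exact 50-base match to an annotated pseudogene. Copies that differ within each such word were not counted. Whether copies lowered these counts was not tested.

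Within each group the nuclear-encoded members moved together from library to library. Of the 83 tested, 72 were higher in WT replicate 2 than in WT replicate 1, and 61 were lower in P65KO-labelled replicate 2 than in P65KO-labelled replicate 1. The median log2 differences were 0.20 and -0.09, larger than the median difference of -0.03 between groups. The same pattern ran by exon length over tested genes with at least 200 counts summed over the 4 libraries. Among 171 such genes of up to 500 bases the medians were 0.19 and -0.11, and among 1525 over 5000 bases they were -0.09 and 0.06. With the same limit on counts, the 12 short nuclear-encoded members were at 0.23 and -0.20. The 32 members of over 500 to 1000 bases were at 0.18 and -0.11. The mitochondrial-encoded genes went another way and were higher in replicate 2 in both groups, all 13 in WT and all 13 in P65KO-labelled libraries (medians 0.34 and 0.33).

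**Figure D5:**
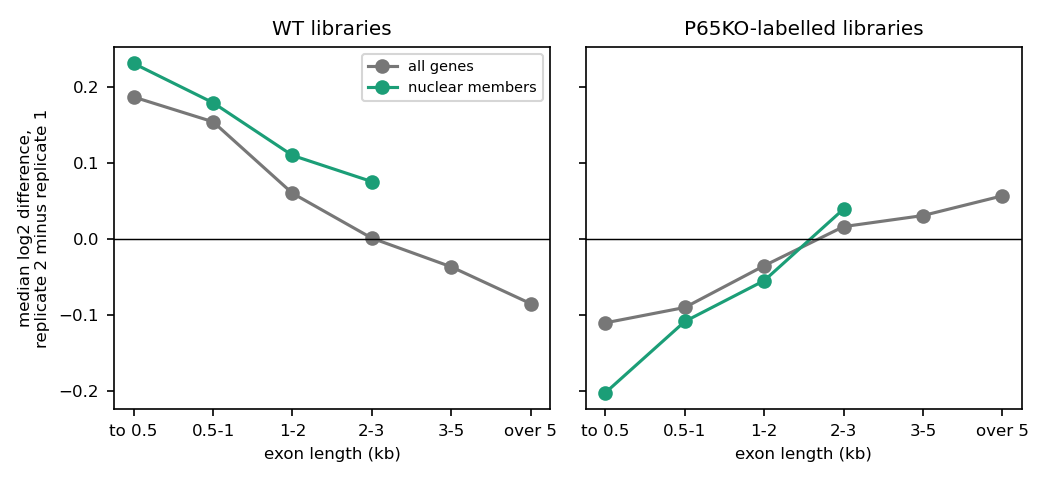
Median log2 difference, replicate 2 minus replicate 1 (vertical axis), by exon length in kilobases (horizontal axis) in WT and P65KO-labelled libraries. Lines are for all genes and for nuclear-encoded members, both limited to tested genes with at least 200 summed counts, in bins with at least 5 genes. In both sets short genes are above 0 in WT and below 0 in P65KO-labelled libraries, as with the medians of 0.23 and -0.20 of the 12 shortest members.

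Promoters of nuclear-encoded members were searched for 5 motifs on both strands in a window of 250 bases before to 50 after the start site (RefSeq, GRCm38.p6), which was found for 76 of the 93 genes. The motif of NRF1, a factor known to bind many respiratory chain promoters, spelled as the capitals in the windows printed below, was in 7 of 76 members (9.21%), in 1.07% of 27025 genes with a promoter and in 2.59% of the 8624 of these that were tested. The YY1 motif AAGATGGC was in 11 members (14.5%), against 3.19% of all genes and 5.83% of tested genes. The ETS motif CCGGAAG was in 17 members (22.4%), the same share as among tested genes (22.4%). TATAAA was in 7 members (9.21%), against 8.3% of tested genes. The 76 members include some that were not tested, such as Uqcr11 with the ETS motif and Cox7b2 and Cox8b with TATAAA. Shares of members and of tested genes are therefore not over like sets. An NF-kB consensus motif, searched in a single spelling, was in 0 members and in 0.267% of tested genes, which says only that this spelling is not in these windows.

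Windows of 60 bases around the NRF1 motif are shown for 5 of the 7 members, to show the element in its setting. Each is read 5′ to 3′ on the strand of the gene, upstream of its start site, with the motif in capitals.
Atp5g2, chr15:102671055-102671114, minus strand: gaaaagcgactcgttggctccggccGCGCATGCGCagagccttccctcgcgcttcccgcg
Atp5k, chr5:108434415-108434474, minus strand: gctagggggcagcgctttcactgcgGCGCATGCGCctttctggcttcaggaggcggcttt
Cox6a1, chr5:115349086-115349145, minus strand: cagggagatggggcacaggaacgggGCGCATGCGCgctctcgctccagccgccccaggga
Ndufa11, chr17:56717677-56717736, plus strand: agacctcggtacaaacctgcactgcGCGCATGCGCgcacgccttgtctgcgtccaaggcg
Ndufaf4, chr4:24897945-24898004, plus strand: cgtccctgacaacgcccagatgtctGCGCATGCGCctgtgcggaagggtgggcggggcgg
The motif ended 32 to 152 bases before the start site in these genes. Their log2 fold changes were -0.15 for Atp5g2, -0.17 for Atp5k, 0.02 for Cox6a1, -0.02 for Ndufa11 and 0.22 for Ndufaf4, and none passed the test. A match is a description of letters and not a site that was shown to be bound.

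Genes that serve the chain without being part of it were taken from 7 lists, of which 203 genes were tested. Of these, 6 rose and 9 fell (7.39%, against 20.7% of all genes). Among 17 genes of mitochondrial DNA transcription and replication 0 passed. Tfam, which packages mitochondrial DNA and starts its transcription, had 115 and 121 CPM in WT and 114 and 111 CPM in P65KO-labelled libraries (log2 fold change -0.07). Polrmt, the mitochondrial RNA polymerase, had 31.3 and 35.3 CPM in WT and 37.7 and 40.3 CPM in P65KO-labelled libraries (0.23, adjusted p = 0.271 by edgeR). Of 20 genes of mitochondrial RNA processing 1 passed (5%). Rexo2, an exonuclease that degrades short RNAs, rose from 110 and 136 CPM in WT to 166 and 165 CPM (0.43, adjusted p = 0.0151 by edgeR). The mitochondrial ribosomal RNAs, which come from the same genome as the 13 members, did not pass: Rnr1 had 253 and 397 CPM in WT and 372 and 350 CPM in P65KO-labelled libraries, and Rnr2 had 441 and 586 CPM against 553 and 553.

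Of 12 tested regulators of mitochondrial biogenesis, 3 rose and 1 fell (33.3%, against 20.7% of all genes). Myc, a growth regulator, rose from 95.9 and 103 CPM in WT to 133 and 156 CPM (log2 fold change 0.54), Nfe2l2, the oxidative stress factor NRF2, rose by 0.49, and Tfeb, a lysosomal regulator, by 0.50. Tfe3, its relative, fell from 55.1 and 50.8 CPM to 30.4 and 29.9 CPM (-0.81). These 4 genes have many targets beyond mitochondria. The factors best known for respiratory chain promoters did not pass. Nrf1 had 65.5 and 56.6 CPM in WT and 62.2 and 72.0 CPM in P65KO-labelled libraries, and Gabpa had 89.6 and 90.8 CPM against 104 and 116 (0.29, adjusted p = 0.0611 by edgeR). Esrra was at 28.9 and 27.5 CPM in WT against 38.8 and 25.5 CPM. The coactivator genes Ppargc1b and Ppargc1a were low, with 15 and 25 counts in WT against 16 and 31, and 1 and 1 counts against 0 and 1.

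Among 41 tested assembly factors outside the symbol rule 3 fell and 0 rose (7.32% called, against 20.7% of all genes). Coa4, a complex IV assembly factor, fell from 12.6 and 16.1 CPM in WT to 9.04 and 6.64 CPM (log2 fold change -0.87), Sdhaf1, which helps insert iron-sulfur clusters into complex II, fell from 77.9 and 69.9 CPM to 45.4 and 49.8 CPM (-0.63), and Acad9, a complex I assembly factor, fell by 0.52 on the log2 scale. Of 23 electron carriers and quinone-linked enzymes 1 rose and 2 fell (13%, also under the share of all genes). Gpd2, which passes electrons from glycerol 3-phosphate to quinone, rose from 20.4 and 17.6 CPM in WT to 36.4 and 36.8 CPM, a log2 fold change of 0.94 (SE 0.15, adjusted p = 0.000802 by edgeR). Adck3, a kinase-like protein of coenzyme Q synthesis, fell from 40.8 and 36.6 CPM to 17.0 and 16.6 CPM, 2.30-fold lower (adjusted p = 0.000137 by edgeR). Etfb, a subunit of the electron transfer flavoprotein, fell by 0.41, and Cycs, cytochrome c, had 11.3 and 8.39 CPM in WT against 9.92 and 10.9 CPM and did not pass.

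Of 15 tested carriers and inner membrane genes 2 fell (13.3%, against 20.7% of all genes called), the nucleotide carrier genes Slc25a33 (-0.85) and Slc25a36 (-0.43). The ADP/ATP carriers did not pass: Slc25a5 had 509 and 578 CPM in WT and 617 and 579 CPM in P65KO-labelled libraries, and Slc25a4 had 136 and 160 CPM against 146 and 125. Ucp2, an uncoupling protein relative, was abundant and nearly level, at 1535 and 1545 CPM in WT against 1375 and 1456 CPM. Among 75 mitochondrial ribosomal protein genes 2.67% passed. Mrpl30 rose (0.33) and Mrps6 fell (-0.47), and the other 73 did not pass.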

How the data were processed

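RNA sequencing libraries were made from Treg cells, 2 labelled WT and 2 labelled P65KO, with groups and replicate numbers taken from the sample titles. Raw counts for each Entrez gene were deposited by the authors together with log2 RPKM values for each library, which equal the log2 of the count plus 0.5 over gene length and library total. The submitters' processing notes name Subread, featureCounts, limma and the build GRCm38 (mm10). Versions, annotation and strand setting were not given in the sources used here. The 571 genes without a symbol were kept.

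From the counts, genes were filtered with filterByExpr, scaled by TMM and tested with the two-sided quasi-likelihood F test of edgeR 4.0.16 (R 4.3.3), with Benjamini-Hochberg adjustment over all genes tested and a threshold of 0.05. "Rose" and "fell" are used only of genes past it. Standard errors are the log2 fold change over the square root of F. The script was tested on simulated counts. Shares and ratios were compared by exact permutation over libraries. Alternatives were RLE scaling, no scaling, scaling without mitochondrial genes, no filter, DESeq2 1.42.0, limma 3.58.1, a replicate block and leaving out each library. Library totals of 4513863 to 4624230 counts set a floor of 3 counts at 0.646 to 0.664 CPM.

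Shared sequence is the percent of a gene's 50-base words, over its GENCODE M21 transcripts, that occur without a mismatch in an annotated pseudogene. Named genes were every mitochondrial-encoded member, nuclear-encoded members called, the 2 most abundant per complex by log2 RPKM, genes with tissue forms, X-linked members, and from each related list up to 3 called genes with the largest change plus set regulators and carriers. Uqcrfs1, Uqcrb, Cyc1, Uqcr11, Ndufb4, Atp5l and the 5 genes with promoters shown were added after their values were seen. Members and lists were chosen with earlier results of these data known. Of the listed symbols, 1 was absent from the table.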

Additional observations from a re-analysis of the deposited data

How the results depend on the processing

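All 13 mitochondrial-encoded genes stayed above 0 under each scaling, test and block tried, and 2 of them were below 0 without WT replicate 1. Their number called, 2, became 0 with no scaling and 0 with no filter, 4 with the replicate block (ND1 and ND6 added), and 0 to 4 when 1 library was left out. The number of nuclear-encoded genes called, 1, became 0 with no filter, 2 with the replicate block (Uqcrfs1 added) and 0 to 1 when 1 library was left out. Over all genes, 2310 calls became 771 with no filter, 1318 with DESeq2 and 743 to 1633 when 1 library was left out. With no scaling there were 823 higher and 1485 lower calls in place of 1005 and 1305, and the median of all genes moved from 0.00 to -0.04. Libraries of the same replicate number did not deviate alike: over 8579 genes the correlation of same-numbered deviations was -0.217. Whether libraries were prepared in pairs is not said by the labels and cannot be told from this value. A crossed pairing, chosen after seeing the data, gave 6 nuclear-encoded, 4 mitochondrial-encoded and 2973 calls over all genes. The difference in the share of mitochondrial-encoded counts ran from 0.152 to 0.899 percentage points when 1 library was left out, and that in the log2 ratio from 0.04 to 0.44. The cause of these changes was not tested. Where a fit left 1 library in a group, that library was assumed to vary like the other group. Precision was limited by 2 libraries a group, with a median standard error of 0.12 on the log2 scale over nuclear-encoded members.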
